A study of Mus musculus with 8 samples.

Results

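The liver-enriched transcription factors Hnf4a, Foxa1, Foxa2, Foxa3, Cebpa, Cebpb, Onecut1 and Prox1 were examined in mouse liver with and without Amacr. These 8 genes were taken by symbol from a fixed list of factors that hold hepatocyte identity, and each of the 8 had 1 probe set among the 16492 that were tested. The livers came from male C57BL/6 mice of 3 to 3.5 months, 4 of them wild-type and 4 Amacr-/-, and each liver gave 1 array of biotin-labelled total RNA. Amacr encodes alpha-methylacyl-CoA racemase, which prepares bile acid intermediates and branched-chain fatty acids for the shortening of their side chains in peroxisomes. The labels do not describe the Amacr allele, and they name no treatment. They call the samples biological replicates and do not say whether the 2 genotypes were littermates.

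Hepatocytes keep their identity through a small set of transcription factors that act on each other's genes as well as on the genes of liver function. HNF4A is an orphan nuclear receptor that is active on genes of lipid, clotting-factor and bile acid metabolism. The FOXA proteins are forkhead factors that open compact chromatin. The C/EBP proteins are leucine-zipper factors of energy metabolism and of the acute phase response, ONECUT1 (also called HNF6) is a cut-homeodomain factor of hepatocytes and bile ducts, and PROX1 is a homeodomain factor of hepatocytes and lymphatic endothelium. In bulk liver RNA, fewer cells that express a factor and less of its RNA per cell cannot be told apart.

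No factor passed the test for a genotype difference, and for all of them but Hnf4a and Foxa3 the SD within genotypes, pooled over the 2 groups, was larger than the difference between the genotype means. Foxa1, Foxa2 and Onecut1, which had low signals together in the same 2 livers, are shown first with the 300 bases around a RefSeq transcription start, 250 before it and 50 after it. Foxa3, which had the largest genotype difference of the 8, and the 2 starts of Hnf4a follow. All are from assembly GRCm38.p6 and are written in the direction of the gene. Capitals mark the letters TGTTTAC or TATTTAC, which FOXA proteins bind, and ATTGAT, the core that ONECUT proteins bind, on either strand.
Foxa1, chr12:57546062-57546361, minus strand: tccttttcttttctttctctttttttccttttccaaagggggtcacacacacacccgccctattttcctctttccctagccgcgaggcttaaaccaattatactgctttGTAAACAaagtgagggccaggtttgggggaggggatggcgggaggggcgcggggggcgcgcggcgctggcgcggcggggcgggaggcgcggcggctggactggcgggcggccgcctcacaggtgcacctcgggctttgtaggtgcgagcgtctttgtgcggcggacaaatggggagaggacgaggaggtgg
Foxa2, the most upstream start, chr2:148046920-148047219, minus strand: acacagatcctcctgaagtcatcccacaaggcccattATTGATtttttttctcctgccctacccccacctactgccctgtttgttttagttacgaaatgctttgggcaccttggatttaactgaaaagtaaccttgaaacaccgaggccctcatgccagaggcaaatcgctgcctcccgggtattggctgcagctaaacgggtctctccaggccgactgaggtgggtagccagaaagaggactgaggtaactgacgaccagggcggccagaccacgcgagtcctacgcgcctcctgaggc
Onecut1, chr9:74861671-74861970, plus strand: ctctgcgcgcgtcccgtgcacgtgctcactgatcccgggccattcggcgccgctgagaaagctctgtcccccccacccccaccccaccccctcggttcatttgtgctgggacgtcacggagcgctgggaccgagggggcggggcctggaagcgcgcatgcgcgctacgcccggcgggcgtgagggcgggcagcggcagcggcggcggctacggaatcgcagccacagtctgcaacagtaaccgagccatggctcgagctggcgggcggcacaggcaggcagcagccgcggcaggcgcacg
Foxa3, chr7:19023490-19023789, minus strand: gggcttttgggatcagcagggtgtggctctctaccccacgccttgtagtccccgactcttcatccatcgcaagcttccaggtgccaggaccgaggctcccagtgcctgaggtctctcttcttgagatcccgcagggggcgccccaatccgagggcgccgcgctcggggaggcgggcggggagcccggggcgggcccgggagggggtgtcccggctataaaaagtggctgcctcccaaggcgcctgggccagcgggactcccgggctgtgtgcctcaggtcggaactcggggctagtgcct
Hnf4a, upstream start, chr2:163506607-163506906, plus strand: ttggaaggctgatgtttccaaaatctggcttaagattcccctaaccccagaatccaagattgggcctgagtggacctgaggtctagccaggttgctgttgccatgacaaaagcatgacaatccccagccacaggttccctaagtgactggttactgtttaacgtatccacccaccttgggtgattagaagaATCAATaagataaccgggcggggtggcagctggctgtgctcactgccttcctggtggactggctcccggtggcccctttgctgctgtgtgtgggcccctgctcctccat
Hnf4a, downstream start, chr2:163546905-163547204, plus strand: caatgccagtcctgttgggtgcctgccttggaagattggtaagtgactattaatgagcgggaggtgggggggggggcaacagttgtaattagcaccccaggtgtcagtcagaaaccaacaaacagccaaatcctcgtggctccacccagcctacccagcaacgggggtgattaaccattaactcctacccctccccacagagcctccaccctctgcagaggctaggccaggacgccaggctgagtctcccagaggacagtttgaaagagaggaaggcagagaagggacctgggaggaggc

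The Foxa1 window held TGTTTAC on the opposite strand, at bases -141 to -135 from the start. The upstream Foxa2 window held ATTGAT at bases -213 to -208, and the upstream Hnf4a window held it on the opposite strand at -59 to -54. Over both strands, TGTTTAC was found in 3.65% of 32851 promoter windows of mouse genes, TATTTAC in 3.04% and ATTGAT in 7.54%. The 8 factors had 12 windows between them, of which 1 held TGTTTAC, 0 held TATTTAC and 2 held ATTGAT. The Onecut1 and Foxa3 windows held none of these letters. TATAAA, the TATA box letters, was found on either strand in 5 of the 12 windows (13.6% of all windows). On the strand of the gene these were Foxa3 at -36 to -31, Cebpa at -30 to -25 and Cebpb at bases 22 to 27 after the start. On the opposite strand they were Prox1 at -34 to -29 and the most downstream Foxa2 window at -208 to -203. Whether any acts as a TATA box was not tested. The letters CAAAGTCC of an HNF4 site were found in 0 of the 12 windows (1.42% of all windows) and the C/EBP letters TTGCNNAA in 0 (10.8% of all), which include the palindrome TTGCGCAA (0.183% of all). The palindromic HNF1 consensus (0.0609% of all) and the cyclic AMP response element TGACGTCA (1.79% of all) were also found in 0. The Hnf4a starts lay 40.3 kb apart on chromosome 2. The deposited table had 1 value for the gene, so transcripts from the 2 starts could not be separated. Adult hepatocytes are known to use mainly the downstream start, and pancreas mainly the upstream one. The Onecut1 window was 73.0% G and C and the Cebpb window 80.7%.

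Signals below are RMA values on the log2 scale. RMA corrects background, brings the arrays to a like distribution and summarises the probes of a gene. Amacr was 11.68 to 12.06 in the wild-type livers and 5.23 to 5.52 in the Amacr-/- livers, as labelled in all 8 livers. The array medians lay between 6.62 and 6.66. Amacr-/- replicate 2 had the lowest array weight (0.2998 against 0.9349 to 1.753 elsewhere). It gave the lowest value of the 8 arrays for 24.47% of all probe sets and the highest for 16.65%. The 3′ minus 5′ difference of the array's Gapdh control probe sets was -0.22 to -0.10, with Amacr-/- replicate 2 at -0.20 and wild-type replicate 4 at -0.17. For beta-actin it was 0.46 to 0.64, lowest in Amacr-/- replicates 1 and 2. Of hepatocyte genes, Alb and Ttr were between 14.57 and 15.05 in every liver. The summed signal of 16 hepatocyte genes was 18.30 to 18.31 in wild type and 18.28 to 18.31 in Amacr-/- (log2 of the sum). Such a sum follows its highest signals, which can be compressed near the top of the scale. It therefore cannot decide whether hepatocyte content was equal.

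**Figure D1:**
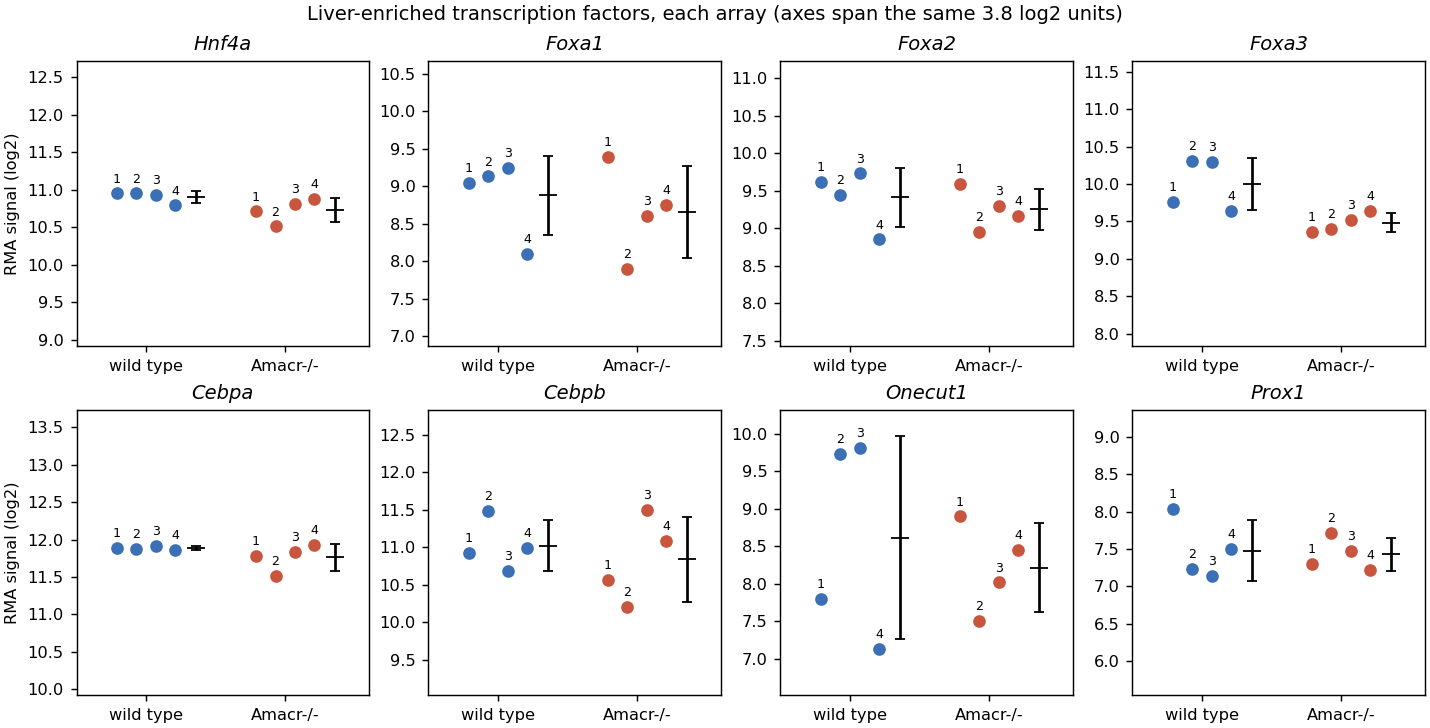
Each panel shows the RMA signal (log2, vertical axis) of 1 factor in the 4 wild-type (blue) and the 4 Amacr-/- livers (red), numbered by replicate, with the group mean and SD in black. The groups overlap or touch in every panel, and Onecut1 has the widest spread, from 7.13 to 9.81.

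Genotypes were compared with limma, and each adjusted p below comes from the Benjamini-Hochberg procedure applied to the 16492 probe sets together. Of the 8 factors 0 passed at an adjusted p under 0.05, a threshold that 0.115% of all probe sets passed, 0.0728% higher and 0.0424% lower in Amacr-/-. At an unadjusted p under 0.05 there was 1 factor, Foxa3, lower in Amacr-/-. Of all probe sets 11.3% had such a p, 5.66% higher and 5.63% lower. The number of factors whose groups did not overlap was 0, against 6.67% of all probe sets (3.42% higher and 3.25% lower in Amacr-/-). All 8 factors had a lower mean in Amacr-/-, as had 43.9% of all probe sets. The median difference of the 8 was -0.18 against 0.02 over all probe sets. The 8 values are not independent of each other, because 1 liver with low signals for several factors moves several means. Without Amacr-/- replicate 2, 6 of the 8 means were lower and the median difference was -0.08. Without wild-type replicate 4 the median was -0.28. Without both of these livers 7 means were lower and the median was -0.185. The groups of 2 factors parted without wild-type replicate 4 (Hnf4a and Foxa3, against 11.4% of all probe sets), without Amacr-/- replicate 4 (Foxa3 and Cebpa, against 9.27%) and without Amacr-/- replicate 2 and wild-type replicate 4 together (Hnf4a and Foxa3, against 23.9%).

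Hnf4a, the nuclear receptor, was 10.95, 10.95, 10.93 and 10.79 in wild-type replicates 1 to 4. In Amacr-/- replicates 1 to 4 it was 10.71, 10.51, 10.81 and 10.88. The groups overlapped because wild-type replicate 4 lay below Amacr-/- replicates 3 and 4. Its means were 10.91 ± 0.08 in wild type and 10.73 ± 0.16 in Amacr-/- (SD, n = 4 in either group). They differed by -0.18 with an SE of 0.09, and the adjusted p in limma was 0.492. The 95% interval ran from -0.38 to 0.02, so its lower end is a 1.30-fold lower signal. The exact two-sided permutation p over the 8 livers was 0.0857. With 1 liver left out the difference ranged from -0.23 (without Amacr-/- replicate 4) to -0.10 (without Amacr-/- replicate 2). Leaving out wild-type replicate 4 ended the overlap, with a difference of -0.22 (adjusted p = 0.45).

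The FOXA genes share a forkhead DNA-binding domain and bind the same letters. Foxa3, the FOXA gene that is known to be most abundant in adult mouse liver, was 9.76, 10.31, 10.29 and 9.64 in wild-type replicates 1 to 4. In Amacr-/- replicates 1 to 4 it was 9.36, 9.40, 9.52 and 9.64. Its groups touched at 9.64, the value of wild-type replicate 4 and of Amacr-/- replicate 4, and the other Amacr-/- livers lay below the wild-type range. The difference of the means was -0.52 (SE 0.16, 95% interval -0.88 to -0.16), or 1.43-fold lower, with an unadjusted p of 0.00998 in limma and an adjusted p of 0.270. The exact permutation p was 0.0571, where 4 livers against 4 cannot give less than 0.0286. Wild-type replicates 2 and 3 were its highest livers. Without replicate 2 the difference was -0.42 and without replicate 3 -0.42. Over 16 alternatives it ranged from -0.64 to -0.42, with adjusted p from 0.143 to 0.552.

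Foxa1, which acts in liver development together with Foxa2, was 9.04, 9.13, 9.25 and 8.10 in wild-type replicates 1 to 4. In Amacr-/- replicates 1 to 4 it was 9.39, 7.90, 8.60 and 8.75. The highest and the lowest of the 8 values were thus both from Amacr-/- livers, replicates 1 and 2. The difference of -0.22 (SE 0.33, 95% interval -0.97 to 0.53, limma adjusted p = 0.837) was smaller than the SD of 0.53 in wild type and 0.61 in Amacr-/-. Without Amacr-/- replicate 2 it was 0.03, and without wild-type replicate 4 it was -0.48. Foxa2, which in liver also acts on genes of fasting metabolism, was 9.62, 9.44, 9.73 and 8.85 in wild type. In Amacr-/- it was 9.59, 8.95, 9.30 and 9.16. Wild-type replicate 4 and Amacr-/- replicate 2 were the 2 lowest livers for Foxa2, as they were for Foxa1. The Foxa2 difference was -0.16 (SE 0.20, 95% interval -0.61 to 0.29, adjusted p = 0.800). It was -0.35 without wild-type replicate 4, -0.27 without Amacr-/- replicate 1, -0.09 without wild-type replicate 1, -0.06 without Amacr-/- replicate 2 and -0.05 without wild-type replicate 3.

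Cebpa, the C/EBP factor of the resting hepatocyte, was 11.89, 11.88, 11.92 and 11.86 in wild-type replicates 1 to 4. Its Amacr-/- values were 11.78, 11.51, 11.84 and 11.93. The wild-type livers lay close together, with an SD of 0.03, and Amacr-/- replicate 2 lay lowest. The difference was -0.12 (SE 0.09, 95% interval -0.33 to 0.08, limma adjusted p = 0.639), and without Amacr-/- replicate 2 it was -0.04. Cebpb, the C/EBP factor that is known to respond to cytokines, glucagon and fasting, was 10.93, 11.49, 10.68 and 10.99 in wild type. It was 10.57, 10.20, 11.50 and 11.08 in Amacr-/-. Its lowest and highest livers were both Amacr-/-, replicates 2 and 3, which differed by 1.30 or 2.46-fold. The Cebpb difference was -0.18 (SE 0.28, 95% interval -0.81 to 0.44, adjusted p = 0.835), and it was 0.03 without Amacr-/- replicate 2 and -0.41 without Amacr-/- replicate 3. Myeloid cells also carry Cebpa and Cebpb. The summed signal of 10 Kupffer cell markers was 12.64 to 13.54 in wild type and 11.995 to 13.26 in Amacr-/- (log2), and it was 12.44 in the liver highest in Cebpb. Their part in the C/EBP signals was not tested.

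Onecut1 had the largest spread of the 8 factors. It was 7.80, 9.73, 9.81 and 7.13 in wild-type replicates 1 to 4, a group that fell into 2 high and 2 low livers. In Amacr-/- replicates 1 to 4 it was 8.90, 7.50, 8.02 and 8.45, within the wild-type range. Its lowest and highest livers, both of wild-type mice, differed by 2.68 or 6.41-fold. Its SD within genotypes was 1.05 (pooled over the 2 groups), higher than for 99.7% of all probe sets, whose median was 0.14. The difference between genotypes was -0.40 (SE 0.61, limma adjusted p = 0.838). Its 95% interval, from -1.77 to 0.97, was the only one of the 8 that reached beyond a 2-fold change. With 1 liver left out, the difference ranged from -0.90 (without wild-type replicate 4) to values near 0 (-0.03 and -0.0025 without wild-type replicates 2 and 3).

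Prox1, which is known to act as a corepressor of HNF4A and of the nuclear receptor NR5A2 in hepatocytes, was 8.04, 7.23, 7.14 and 7.50 in wild-type replicates 1 to 4. In Amacr-/- it was 7.30, 7.72, 7.47 and 7.22. Wild-type replicate 1 was its highest liver and the Amacr-/- values lay within the wild-type range. The difference was -0.05 (SE 0.19, 95% interval -0.49 to 0.39, limma adjusted p = 0.939). It was 0.14 without wild-type replicate 1, 0.02 without Amacr-/- replicate 4 and -0.16 without wild-type replicate 3. Other cells of the liver that carry Prox1 are lymphatic endothelial cells. The summed signal of 5 lymphatic endothelial markers was 10.10 to 10.71 in wild type and 10.08 to 10.64 in Amacr-/- (log2), and in wild-type replicate 1, where Prox1 was highest, it was 10.35. Their part in the Prox1 signal was not tested.

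**Figure D2:**
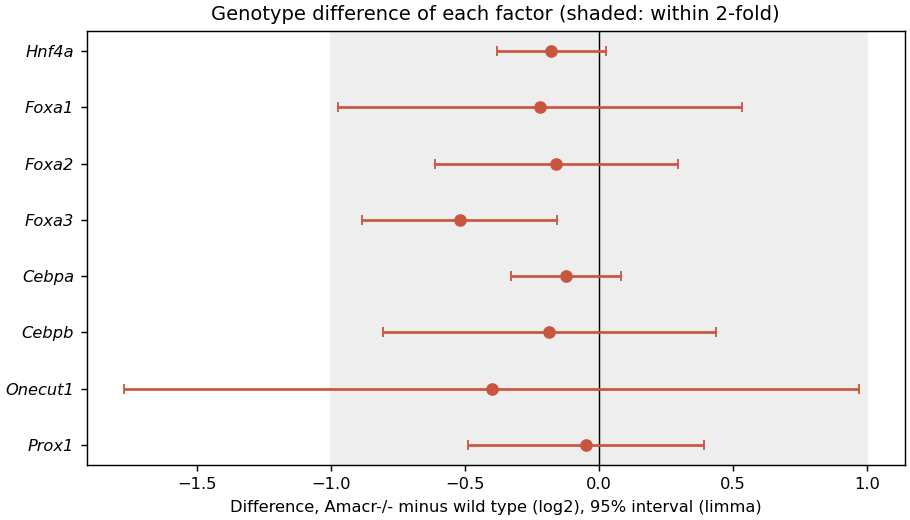
The difference between the genotype means (log2, horizontal axis) is shown for each factor as a point with its 95% interval from limma, and the shading spans a 2-fold change in either direction. Onecut1 alone reaches beyond the shading, and Foxa3 alone has an interval that does not include 0.

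For 7 of the 8 factors the 95% interval lay within a 2-fold change in either direction, as it did for 96.5% of all probe sets. The intervals of Hnf4a and Cebpa were the narrowest, with lower ends at a 1.30-fold and a 1.26-fold lower signal. These bounds are of array signals, each interval taken alone. No detection calls were used here, so the part of background in the signals was not tested.

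Several of the factors had their lowest values in the same livers. Amacr-/- replicate 2 gave the lowest value of the 8 livers for 4 factors, Hnf4a, Foxa1, Cebpa and Cebpb. The same liver was lowest for 24.47% of all probe sets and highest for 16.65%. Wild-type replicate 4 was lowest for Foxa2 and Onecut1, and was lowest for 10.47% of all probe sets. The median of the 8 factors relative to their wild-type means was lowest in Amacr-/- replicate 2, at -0.53. It was -0.24 for wild-type replicate 4 and between -0.15 and 0.16 in the 6 remaining livers. In Amacr-/- replicate 2, Afp, the fetal serum albumin gene, was 8.62 against 4.32 to 5.36 elsewhere, and Lcn2, an acute phase target of C/EBP proteins, was 10.63 against 6.93 to 8.85. Cholangiocyte markers summed to 9.09 there against 7.95 to 8.45 in the other livers (log2). Tspan8 (7.20), Epcam (6.99), Sox9 (6.47) and Krt19 (6.32) were highest in that liver, and Krt7 (5.04), Cldn7 (5.90) and Cftr (3.35) were not. Wild-type means of these 7 markers were 3.35 to 6.07, below the array medians of 6.62 to 6.66. Stellate cell and fibroblast markers summed to 12.93 in that liver against 12.06 to 12.39 (log2). The part of cholangiocytes, stellate cells and fibroblasts in the factor signals was not tested. In wild-type replicate 4, 10 Kupffer cell markers summed to 13.54, the highest of all livers.

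**Figure D3:**
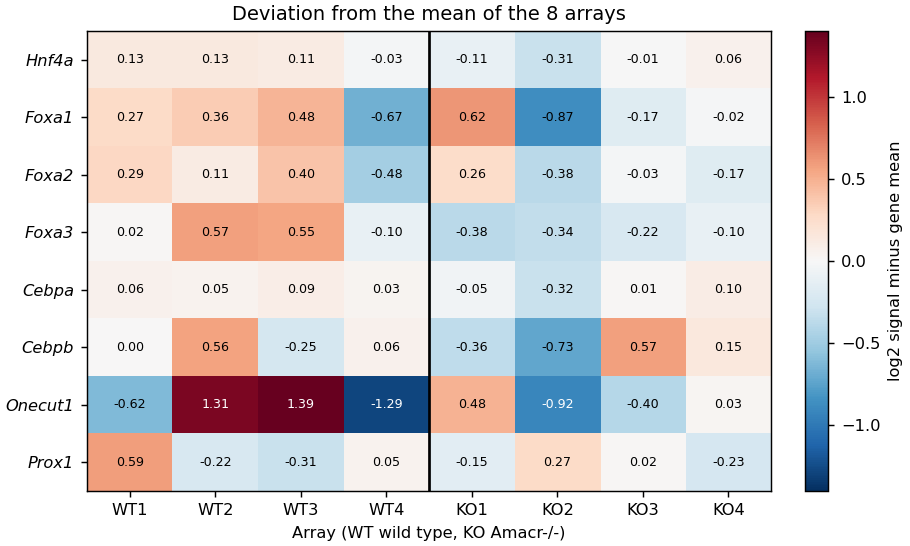
Each cell gives the signal of 1 factor (row) in 1 liver (column) minus that factor's mean over the 8 livers, in log2 units, red above and blue below. The columns of wild-type replicate 4 and Amacr-/- replicate 2 are blue for Foxa1, Foxa2 and Onecut1, and wild-type replicates 2 and 3 are red for Foxa3 and Onecut1.

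Of the 28 pairs of factors, 21 correlated positively across the 8 livers and 7, all with Prox1, negatively. The share of positive pairs among probe sets in general was not computed. After adjustment over the 28 pairs, 2 passed by Pearson's r. By Spearman's rho the lowest adjusted exact permutation p was 0.108. For Foxa1 and Foxa2 Pearson's r was 0.93 (exact permutation p = 0.0017, 0.0326 adjusted over the 28 pairs) and Spearman's rho 0.83 (exact p = 0.0154, adjusted 0.108). Without wild-type replicate 4 and Amacr-/- replicate 2, the 2 livers farthest from the median of Foxa1, r was 0.80 over 6 livers, and as deviations from the genotype means it was 0.92. Of 16491 other probe sets, Foxa2 had the fourth highest correlation with Foxa1, and Foxa1 likewise with Foxa2. For Hnf4a and Cebpa r was 0.93 (exact permutation p = 0.0023, adjusted 0.0326) and rho 0.75 (exact p = 0.0380, adjusted 0.213). Without the 2 livers farthest from the Hnf4a median r was 0.58, so that relation rested in part on them. All probe sets of an array share its RNA and its normalization, and 47th was the place of Cebpa among the probe sets most like Hnf4a.

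Onecut1 followed Foxa1 with r = 0.80 (exact permutation p = 0.0211, adjusted 0.197) and rho = 0.83 (exact p = 0.0154, adjusted 0.108), and r was 0.61 without the 2 livers farthest from the Foxa1 median. Onecut1 ran against Prox1 with r = -0.70 (exact permutation p = 0.0497, adjusted 0.200) and rho = -0.83 (exact p = 0.0154, adjusted 0.108). Without the 2 livers farthest from the Onecut1 median, that r was -0.54. Foxa3 and Onecut1 had r = 0.72 (exact permutation p = 0.0474, adjusted 0.200) and rho = 0.41 (exact p = 0.317, adjusted 0.569). That relation rested on wild-type replicates 2 and 3, without which r was -0.35. Hnf4a and Foxa3 had r = 0.73 (exact permutation p = 0.0419, adjusted 0.200) and the highest rho of the 28 pairs, 0.89 (exact p = 0.0058, adjusted 0.108). Their r was 0.72 without the 2 livers farthest from the Hnf4a median and 0.50 as deviations from the genotype means. None of these 4 relations passed after adjustment over the 28 pairs.

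**Figure D4:**
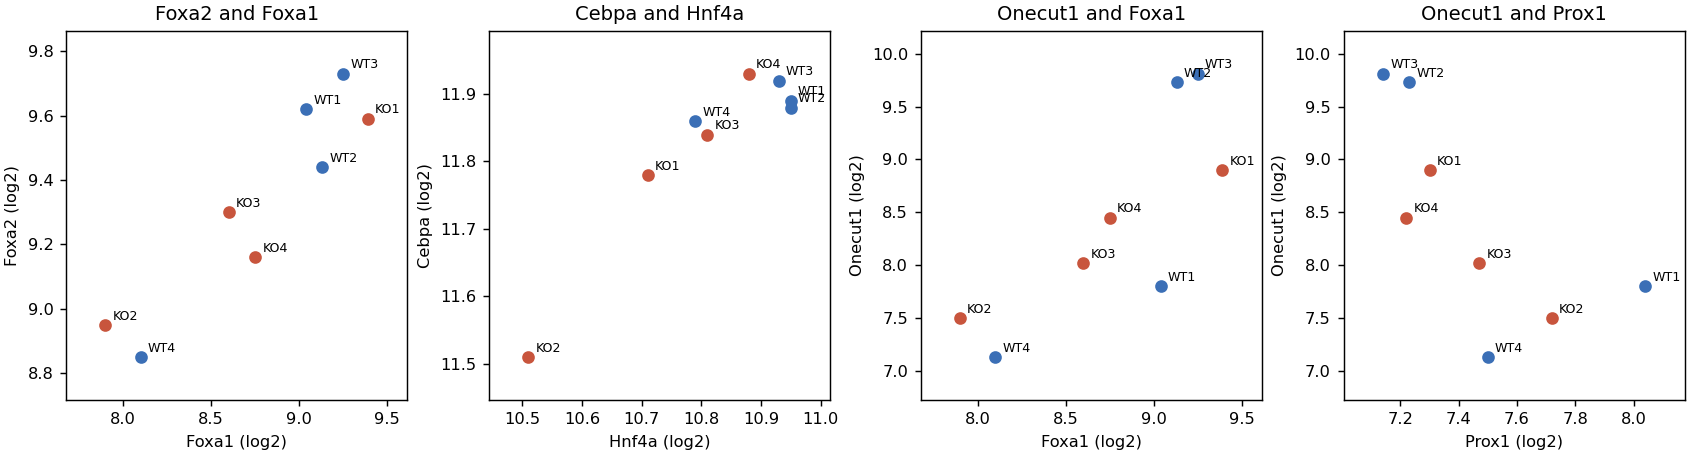
Each panel sets the log2 signal of 1 factor against another, with 1 point per liver (blue wild type, red Amacr-/-, numbered by replicate). Foxa1 and Foxa2 are lowest together in wild-type replicate 4 and Amacr-/- replicate 2, Cebpa and Hnf4a are lowest together in Amacr-/- replicate 2, and wild-type replicates 2 and 3, the livers highest in Onecut1, lie at the low end of Prox1, at 7.23 and 7.14.

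Genes whose values over the 8 livers were most like those of a factor are given as a description. For Foxa1 these were Arid5b (r = 0.976), Cyp2d26 (0.932) and Ada (0.931), and for Foxa2 they were Potegl (0.969), Ada (0.942) and Arid5b (0.927). Arid5b, an AT-rich interaction domain factor, was lowest in the 2 livers where Foxa1 and Foxa2 were, at 7.19 and 6.99, and 7.63 to 8.29 elsewhere. Cyp2d26 is a liver P450 and Ada is adenosine deaminase. For Foxa3 the closest were Usp48 (0.976), Nop9 (0.973) and Trappc11 (0.965). For Hnf4a they were Ager (0.990), Zc3h10 (0.988) and Trabd (0.988), and for Cebpa Hapln4 (0.988), Cyp2d13 (0.981) and Pex6 (0.979), a peroxin. For Cebpb they were Tox (0.989), Gstz1 (0.968) and Pim3 (0.961), for Onecut1 Tox2 (0.948), Cfap97 (0.938) and Sim2 (0.932), and for Prox1 Msl3l2 (0.942), Fign (0.939) and Esr1 (0.907), the estrogen receptor. High values are easily reached with 8 livers. An r of 0.9 or more was reached by 139 probe sets with Cebpa, 128 with Hnf4a, 60 with Cebpb and 28 with Foxa3. It was reached by 14 with Foxa2, 11 with Foxa1, 7 with Onecut1 and 4 with Prox1.

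Of 15 other liver-enriched factors measured, 0 passed over all genes in limma and 3 had an unadjusted p under 0.05, all lower in Amacr-/-. Of all probe sets 11.3% had such a p, 5.63% lower in Amacr-/-. The groups did not overlap for 2 of the 15, both lower, and for 3.25% of all probe sets in that direction. The median difference of the 15 was -0.03. Cebpg, a C/EBP family partner, was 8.36 to 8.48 in wild type and 7.96 to 8.16 in Amacr-/-, a difference of -0.35 (SE 0.07, adjusted p = 0.104) with no overlap. Zbtb20, a zinc-finger repressor of Afp, was 9.30 to 9.78 in wild type and 9.08 to 9.25 in Amacr-/-, a difference of -0.35 (SE 0.10, adjusted p = 0.235), also without overlap. Tbx3 differed by -0.30 (adjusted p = 0.406), and Zhx2, another repressor of Afp, by -0.21 (adjusted p = 0.529).

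Among 10 cofactors and antagonists 0 passed and 1 had an unadjusted p under 0.05, against 11.3% of all probe sets. The 1 was Nr0b2 (SHP), a corepressor that binds HNF4A, at 9.78 to 10.09 in wild type and 8.92 to 9.71 in Amacr-/-. Its difference was -0.58 (SE 0.16, limma adjusted p = 0.224) with no overlap, as for 3.25% of all probe sets in that direction. Ppargc1a, a coactivator of HNF4A in fasting, differed by -0.26 (adjusted p = 0.450), Trib3 by 0.68 (SE 0.43, adjusted p = 0.580) and the acetyltransferase gene Ep300 by -0.15 (adjusted p = 0.660). The list median was 0.01.

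Known target genes were read beside the factors. Of 16 HNF4A targets 0 passed in limma and 2 had an unadjusted p under 0.05, against 11.3% of all probe sets. The list median was -0.01 (the median of all probe sets was 0.02). The 4 with the smallest p were G6pc, glucose-6-phosphatase (-0.66, adjusted p = 0.272), Cyp8b1, the sterol 12-alpha-hydroxylase (0.56, 0.416), Apoa4 (0.70, 0.551) and Nr1i2, the pregnane X receptor (0.23, 0.562), the second number in each bracket being the adjusted p. The 4 thus held both signs. Of 8 FOXA targets 0 passed and 1, G6pc, had an unadjusted p under 0.05, with a list median of -0.04. The others of the 4 smallest were Afp (1.41, SE 0.73, adjusted p = 0.507, raised in 1 liver as given above), Pck1 (-0.56, adjusted p = 0.576) and Ttr (-0.04, SE 0.06, adjusted p = 0.821).

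Of 15 C/EBP targets 0 passed and 2 had an unadjusted p under 0.05, against 11.3% of all probe sets, and the list median was 0.00. Gys2, the liver glycogen synthase, was 11.03 to 11.72 in wild type and 9.79 to 10.90 in Amacr-/- (-0.98, SE 0.25, limma adjusted p = 0.179). Its lowest liver was Amacr-/- replicate 2, as for Cebpa and Cebpb. G6pc was the other, and Saa3 (-0.78, adjusted p = 0.453) and Pck1 followed. All 3 measured ONECUT1 targets, Ttr, Igfbp1 (-0.32, SE 0.52, adjusted p = 0.847) and Tdo2 (-0.01, SE 0.07, adjusted p = 0.947), had an unadjusted p above 0.05. The signal of Ttr spanned 14.57 to 14.68 over livers in which Onecut1 spanned 7.13 to 9.81. Signals near the top of an array's scale can be compressed, and that was not tested.

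**Figure D5:**
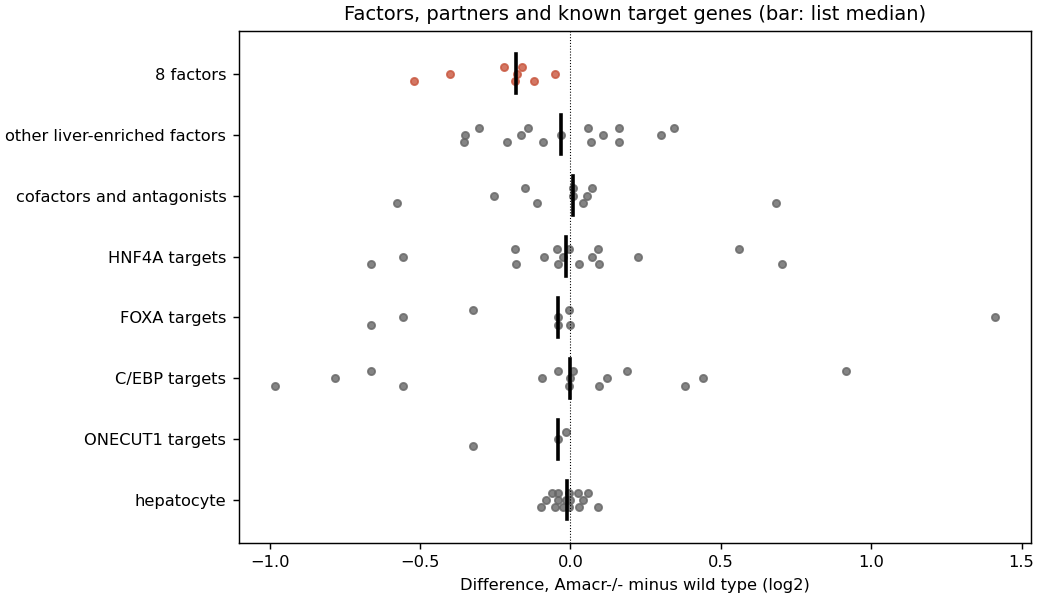
Each point is the difference between genotype means (log2, horizontal axis) of 1 gene, with the 8 factors in red, other lists in grey and each list's median as a black bar. The 8 factors all lie at or below -0.05, with a median of -0.18, and the lists of other factors, cofactors, targets and hepatocyte genes plotted here have medians from -0.04 to 0.01. Lists of other cell types, not plotted, have medians from -0.38 (Kupffer cell) to 0.33 (pancreas and gut endoderm). In the latter list, Prss2, Cpa1 and Cela3b were 7.44 to 7.76 in Amacr-/- replicate 1 and at most 6.10 in any other liver.

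Genes of hepatocytes and of other cells that these livers hold were read the same way, and 0 passed in limma in any of the lists. Of 16 hepatocyte genes 0 had an unadjusted p under 0.05, against 11.3% of all probe sets, and all lay between -0.10 and 0.09. The 4 with the smallest p were Ahsg (-0.10), Apoc3 (0.09), Serpina1a (-0.06) and Cyp2e1 (-0.08). Of 7 cholangiocyte markers, which mark cells that also carry Onecut1, Krt19 (0.20), Sox9 (0.35), Tspan8 (0.83) and Cldn7 (-0.15) came first, and 0 had an unadjusted p under 0.05. Their summed signal was 8.08 to 8.45 in wild type and 7.95 to 9.09 in Amacr-/-. The livers highest in Onecut1, wild-type replicates 2 and 3, had 8.08 and 8.27. The summed signal of 6 fetal liver genes was 7.65 to 7.78 in wild type and 7.88 to 9.15 in Amacr-/-. The 9.15 was in Amacr-/- replicate 2, where Afp was 8.62, and replicates 1, 3 and 4 had 7.88, 7.935 and 8.04. The groups did not part for any single gene of the 6. Wild-type means of the 6 were 3.84 to 5.95, below the array medians of 6.62 to 6.66. How often such sums part by chance was not tested. Of these, Dlk1 (0.21), Afp, Igf2 (0.12) and Igf2bp3 (0.09) came first and 0 had an unadjusted p under 0.05. Of 6 genes of pancreas and gut endoderm, which also carry FOXA factors, Ptf1a (0.21, adjusted p = 0.362) had an unadjusted p under 0.05. Cdx2 (0.18), Prss2 (0.53) and Cpa1 (0.58) followed. Prss2 and Cpa1, exocrine pancreas enzymes, were 7.44 and 7.66 in Amacr-/- replicate 1 against at most 6.00 and 5.52 elsewhere. Pdx1 (4.32), Ptf1a (4.77) and Cdx2 (5.52) lay there within the range of the other livers. That liver had the highest Foxa1. Its Foxa2 (9.59) lay below wild-type replicates 1 and 3, and its Foxa3 (9.36) was the lowest of the 8 livers. Whether pancreas RNA has a part in that Foxa1 value was not tested. Without Amacr-/- replicate 1 the Foxa1 difference was -0.46.

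The remaining lists held no gene past the threshold either. Of 10 Kupffer cell markers, all 10 had lower means in Amacr-/-, as had 43.9% of all probe sets. Their summed signal (log2) was 13.26 and 13.12 in Amacr-/- replicates 1 and 2, within the wild-type range of 12.64 to 13.54. It was 12.44 and 11.995 in Amacr-/- replicates 3 and 4. Marco (-1.13, limma adjusted p = 0.425), Clec4f (-0.38), Csf1r (-0.37) and Timd4 (-0.41) came first. Of 8 markers of sinusoidal endothelium these were Clec4g (-0.43), Oit3 (0.19), Pecam1 (0.19) and Kdr (-0.08). Of 5 lymphatic endothelial markers they were Mmrn1 (0.18), Flt4 (-0.14), Reln (-0.16) and Lyve1 (-0.34), and of 10 markers of stellate cells and fibroblasts Dcn (0.24), Des (0.15), Reln and Pdgfrb (0.21). Of 5 lymphocyte markers they were Cd3e (0.16), Ms4a1 (-0.18), Cd3g (-0.24) and Nkg7 (-0.11). Of 4 neutrophil markers Ngp (0.33), S100a9 (-0.53) and S100a8 (-0.54) had an unadjusted p under 0.05, with adjusted p of 0.337, 0.378 and 0.435, and Csf3r (-0.07) did not. The share of all probe sets with an unadjusted p under 0.05 was 11.3%.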

How the data were processed

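Total RNA of 8 livers was extracted with TRIzol and labelled with biotin, per the labels' protocols. The authors deposited 1 log2 value per probe set and array, made with RMA per the submitters' processing notes; for its version, filters and genome build, the sources give nothing (not given in the sources used here). These values have 2 decimals. Of 16556 probe sets, 64 array controls were left out. Names came from GEO's platform annotation through Entrez numbers, and promoter sequences and starts from RefSeq (GRCm38.p6), where all 8 factors matched. The test of genotype was limma's (version 3.58.1, under R 4.3.3; lmFit and eBayes with genotype as the only term, two-sided, Benjamini-Hochberg over 16492 probe sets), tested on simulated data. Correlations and single values had exact permutation tests. The number of arrays, 4 against 4, limits the precision. No 2 arrays were identical, and no scan dates were used here, so batches were not tested. Deviations from the group means of same-numbered livers correlated at -0.115 to 0.0915 over all probe sets. The labels do not say whether the numbers pair livers. These correlations cannot decide it, because a shared effect could be small or limited to few genes.

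The factors and gene lists were chosen with earlier results of these data known. Genes named were the 8 factors, the 4 of each list with the smallest p and any past the threshold, the 3 genes most like each factor, and Amacr. Lcn2, Bcl6, Cish and Igf1, the levels given for Afp and Arid5b, and the livers singled out were chosen after the values were seen. Some listed genes were not analysed here. Alternatives left out single livers or a pair, used the replicate number as a block, array weights, another variance prior, quantile or median scaling, a filter on low values, and the control probe sets.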

Additional observations from a re-analysis of the deposited data

Results flagged for a closer look

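In 92 named genes, each group of 4 livers was searched for a liver far from the other 3 by Dixon's ratio at the 95% level, and 7 of 184 groups had one. Chance alone flags about 1 in 20 groups of genes chosen without regard to their values. That rate does not hold for Lcn2, Bcl6, Cish and Igf1, which were chosen after their values were seen. Nor does it hold for the genes named for their small p or their likeness to a factor. Those were picked from these same values, so the number flagged cannot be set against that rate. Of the 16 groups of the 8 factors, 1 was among them, Hnf4a in wild type, where replicate 4 was 10.79 against 10.93 to 10.95. Amacr itself was 11.68 in the same liver against 12.03 to 12.06 in the other wild-type livers, and Lcn2 was 8.85 there against 7.09 to 7.14. The other 4 were in Amacr-/- replicate 2. Afp was 8.62 there against 4.83 to 5.36 in the other Amacr-/- livers, Pdgfrb was 7.96 against 6.90 to 7.04, and Bcl6 was 8.92 against 6.81 to 6.94. Serpina1a was 14.19 against 14.15 in each of the others, a gap of a few steps of the 2-decimal values.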

How the results depend on the processing

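Over 16 alternatives the number of factors past the threshold was 0 in each, and so was the number of other listed genes (limma, adjusted p under 0.05). The lowest adjusted p of any factor was 0.143. Of 128 factor differences under alternatives, 123 kept their sign and their side of the threshold. The replicate block, the other variance prior, the filter and the control probe sets leave each difference of means unchanged. Under those alternatives a sign could not change, so the count overstates how stable the signs are. The 5 that changed sign were small: Cebpb 0.0275 without Amacr-/- replicate 2 and 0.0167 without that liver and wild-type replicate 4 together, Foxa1 0.0333 without Amacr-/- replicate 2, and Prox1 0.1375 without wild-type replicate 1 and 0.0192 without Amacr-/- replicate 4. With 1 liver left out, Cebpb ranged from -0.4058 to 0.0275, Foxa1 from -0.48 to 0.0333 and Prox1 from -0.1625 to 0.1375. The median difference of the 8 ranged from -0.28 to -0.08. The number of factors whose groups did not overlap was 0 to 2 when 1 liver was left out. It was 2 without wild-type replicate 4 (Hnf4a and Foxa3, with 11.4% of all probe sets not overlapping), 2 without Amacr-/- replicate 4 (Foxa3 and Cebpa, 9.27%) and 2 without Amacr-/- replicate 2 and wild-type replicate 4 together (Hnf4a and Foxa3, 23.9%); fewer livers make separation easier. The number of all probe sets past the threshold, 19, ranged from 2 to 39 when 1 liver was left out. It was 39 without Amacr-/- replicate 2 and wild-type replicate 4 together, 75 with array weights, 36 with a variance prior with trend and robust, and 38 with quantile normalization, which split them 24 higher and 14 lower against 12 and 7. It was 1 with the replicate block, and the block changed no call of a factor. The cause of these shifts was not tested. With 4 livers a group for every factor, the SE ran from 0.09 for Hnf4a to 0.61 for Onecut1 with the spread between livers, and signal over background was not known.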

Other observations

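The 3 livers lowest in Onecut1 were also the 3 highest in Bcl6. How many other probe sets part the same livers was not counted. Bcl6, a transcriptional repressor that growth hormone is known to lower in liver, stood at 9.22 in replicate 1 of the wild type, at 9.60 in replicate 4, and at 8.92 in Amacr-/- replicate 2. It was 6.81 to 7.06 in the other 5 livers. Onecut1 was 7.80, 7.13 and 7.50 in those 3 livers and 8.02 to 9.81 in the other 5, and Prox1 was 8.04, 7.50 and 7.72 against 7.14 to 7.47. The split ran across both genotypes, and the Bcl6 difference between genotypes was -0.81 (SE 0.72, limma adjusted p = 0.7). Bcl6 was chosen after its values were seen, so that p and its flag above only describe it. The split itself was not tested.

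Cish, a growth hormone target that feeds back on cytokine receptors, was chosen in the same way. Its wild-type values, by replicate, were 8.66, 9.10, 9.78 and 7.73. Its Amacr-/- values were 9.84, 7.96, 8.43 and 8.70. Its lowest livers were wild-type replicate 4 and Amacr-/- replicate 2, as for Foxa1 and Foxa2, and its highest was Amacr-/- replicate 1, as for Foxa1. Igf1, the main growth hormone target gene for circulating growth factor, was 11.71 to 12.07 over the 8 livers.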
